A study of Mus musculus with 16 samples.

Results

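The genes examined encode 10 proteins that methylate lysine 9 of histone H3 (H3K9) or silence repeats with that mark: methyltransferases and their partners, 2 subunits of the HUSH complex and the MORC3 ATPase. They were picked by symbol (Setdb1, Atf7ip, Trim28, Ehmt1, Ehmt2, Suv39h1, Suv39h2, Mphosph8, Pphln1 and Morc3), and each matched 1 of the 30141 mouse gene identifiers in the count files. All 10 were among the 18341 genes that passed the filter on low counts. RNA came from LSK cells, the bone marrow fraction without mature-lineage surface markers and with Sca1 and Kit on the surface, which holds blood stem cells and early progenitors. There were 16 libraries in 4 groups. WT marrow gave 4 libraries after NaCl and 3 after azacitidine, and R882H marrow gave 4 after NaCl and 5 after azacitidine.

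R882H cells carry, at the endogenous locus, an allele that encodes human DNMT3A with the R882H change behind a removable stop cassette, beside a mouse Dnmt3a gene that the labels give as wild type. WT cells are labelled with wild-type mouse DNMT3A alone. The allele was made in C57BL/6N-derived JM8.N4 embryonic stem cells and crossed to Mx1-Cre, whose promoter answers interferon and is active in blood-forming and other tissues. Donors with and without Cre, matched for age (no age is given), received poly(I:C), an inducer of interferon, at 15 µg per g on 3 days. The labels do not tie the Cre status to the groups, and they also give 400 µg injections without saying which animals had them. Marrow taken 4 weeks later was mixed in equal parts with wild-type CD45.1 marrow and transplanted into CD45.1 recipients. Treatment began 2 weeks after transplant, with azacitidine at 2.5 mg per kg or with 0.9% NaCl, for 2 weeks with 5 days on and 2 off. Whether donor cells were sorted away from competitor cells is not stated, so an R882H library may hold wild-type cells in an unknown share. The labels do not say that the libraries of a group came from separate animals, so p-values measure the spread between these samples.

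Methylation of H3K9 marks silent chromatin, and different enzymes place it in different settings. SETDB1 is brought to retroviral sequences by TRIM28, which KRAB zinc finger proteins carry to DNA. EHMT1 and EHMT2 act as a pair on silent genes, SUV39H1 and SUV39H2 act at pericentromeric heterochromatin, and HUSH recognises the mark and spreads silencing over LINE elements and other intronless DNA. In blood stem cells these proteins are known for keeping retroelements and genes of other lineages silent, and azacitidine, which traps DNA methyltransferases on DNA, acts on the DNA methylation that often lies on the same sequences.

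The start sites of these genes lie in DNA rich in CpG, the dinucleotide that DNA methyltransferases act on. The promoters of 3 members, Morc3, Ehmt1 and Mphosph8, are shown because these were the members whose levels separated the NaCl libraries by number, as described further on. Each is 300 bases long, from 250 before to 50 after the annotated start, 5′ to 3′ on the gene's strand, from RefSeq on GRCm38.p6, with CpG dinucleotides in capitals. They lie at chr16:93831871-93832170 on the plus strand (Morc3), chr2:24919560-24919859 on the minus strand (Ehmt1) and chr14:56667998-56668297 on the plus strand (Mphosph8).
Morc3: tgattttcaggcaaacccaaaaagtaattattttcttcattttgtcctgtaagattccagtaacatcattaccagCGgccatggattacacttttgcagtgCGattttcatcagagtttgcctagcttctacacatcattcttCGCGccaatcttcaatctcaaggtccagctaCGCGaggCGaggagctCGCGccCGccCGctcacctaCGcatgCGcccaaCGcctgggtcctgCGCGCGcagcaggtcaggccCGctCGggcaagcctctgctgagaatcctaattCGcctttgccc
Ehmt1: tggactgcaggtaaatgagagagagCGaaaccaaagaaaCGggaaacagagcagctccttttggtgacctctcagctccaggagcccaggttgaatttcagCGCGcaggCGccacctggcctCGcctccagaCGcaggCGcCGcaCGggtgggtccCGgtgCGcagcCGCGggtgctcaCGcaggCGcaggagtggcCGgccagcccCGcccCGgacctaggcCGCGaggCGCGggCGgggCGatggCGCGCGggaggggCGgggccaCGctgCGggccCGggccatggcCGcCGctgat
Mphosph8: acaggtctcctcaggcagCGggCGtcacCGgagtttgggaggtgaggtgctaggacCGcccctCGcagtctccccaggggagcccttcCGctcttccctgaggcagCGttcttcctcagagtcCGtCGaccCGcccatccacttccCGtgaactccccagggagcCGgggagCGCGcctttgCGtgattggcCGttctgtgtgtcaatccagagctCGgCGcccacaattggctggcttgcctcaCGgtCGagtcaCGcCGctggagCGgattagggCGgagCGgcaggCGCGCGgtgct

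These windows hold 20 CpG in Morc3, 34 in Ehmt1 and 28 in Mphosph8. RefSeq gave 13 windows for the 10 members, with 15 to 53 CpG each (median 29), against a median of 7 over all 32851 windows of that length. The ratio of observed to expected CpG was 0.703 to 1.214 in the members' windows and 0.384 at the median of all windows. The letters GGGCGG, searched on both strands, stood in at least 1 window of 9 of the 10 members and in 35.66% of all windows. CCAAT stood in windows of 5 members and in 37.41% of all. CCGGAAG stood in windows of 2 members and in 8.86% of all, and the palindromic NRF1 motif in 0 member windows and in 0.97% of all. No DNA methylation was measured at these sites in the files used here.

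The libraries held 35860445 to 56012766 counts, of which 2.97 to 10.1% fell on repeat families, with the highest share in WT with azacitidine replicate 1. Every member was counted in every library, from 300 to 959 counts for Suv39h2, the lowest member, to 10679 to 20049 for Trim28, the highest. Markers of LSK and stem cells were present throughout, with Ly6a, which encodes Sca1, at 30.6 to 275 CPM and Kit at 410 to 1226 CPM. CPM are gene counts scaled to a common library size after TMM normalisation. Cd34 was at 427 to 1376 CPM, Flt3 at 166 to 798 and Procr at 7.31 to 107. Of 6 T and NK cell markers the sum was 240 to 842 CPM, most of it Nkg7 at 235 to 841 CPM. R882H with NaCl replicate 1 stood apart, with Cd3e at 24.2 CPM against at most 3.00 in any other library. R882H with NaCl replicate 2 stood apart by erythroid RNA, with Klf1 at 777 CPM, and the 4 erythroid markers summed to 32.0 to 948 CPM over all libraries. The other lists summed to 2.62 to 29.6 CPM (mature B cells), 1.96 to 548 (mature neutrophils), 37.8 to 85.5 (macrophages) and 39.5 to 252 (mast cells and basophils). In bulk RNA, fewer cells of a type and less RNA per cell cannot be told apart.

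Per length of transcript, Trim28 was by far the most abundant member and Suv39h2 the least. In the deposited FPKM, which divide counts by gene length, Trim28 averaged 89.8 ± 8.91 (SD, n = 16 libraries) and its lowest library, at 69.2, lay above the highest Morc3 library, at 34.9. Morc3 followed at 26.5 ± 5.89 FPKM and was above Suv39h1 in 15 of 16 libraries. Suv39h1 (17.7 ± 2.82) and Ehmt2 (16.7 ± 2.31) were not parted beyond their spread, with Suv39h1 the higher in 10 of 16. Ehmt2 was above Ehmt1 (12.4 ± 2.53) in 16 of 16.

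Mphosph8 (11.6 ± 2.34 FPKM), Pphln1 (9.63 ± 2.33) and Setdb1 (8.67 ± 1.98) made up the middle of the order. Neighbours there changed places, since Ehmt1 was above Mphosph8 in 9 of 16 libraries, Mphosph8 above Pphln1 in 9 and Pphln1 above Setdb1 in 10. Atf7ip, at 4.26 ± 0.949, lay below Setdb1 in all 16, and Suv39h2, at 2.96 ± 0.743, lay below Atf7ip in 14. The annotated length differs widely, from 3586 bases for Mphosph8 to 20726 for Atf7ip, and the FPKM rest on it.

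**Figure D1:**
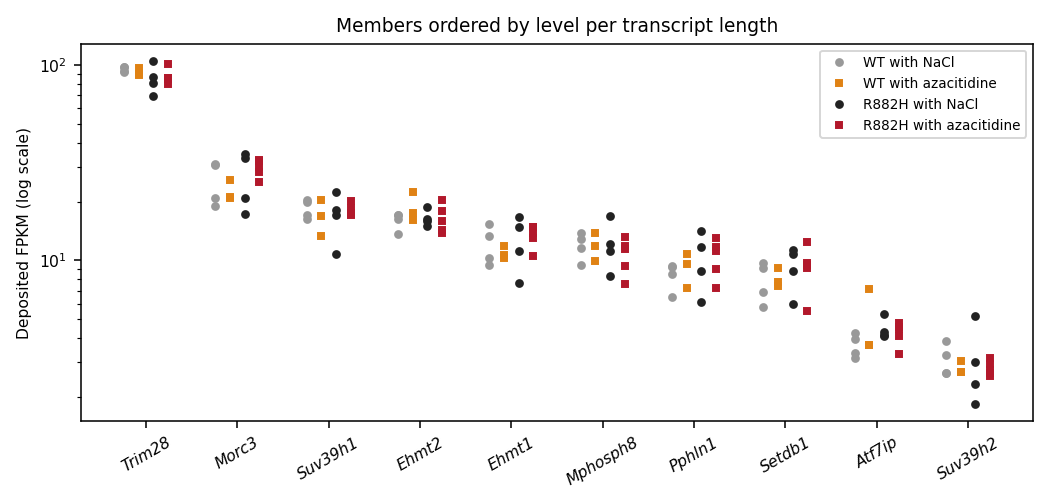
Deposited FPKM (log axis) of each member in each of the 16 libraries, ordered by the mean over libraries, with points coloured by group. Trim28 lies above every other member in every library, and neighbours in the middle of the order overlap.

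SETDB1, the H3K9 methyltransferase that acts at endogenous retroviruses, showed more spread between libraries than between groups. Setdb1 (chr3:95323525-95357202 on GRCm38, minus strand) stood at 41.6, 50.8, 64.3 and 69.1 CPM in WT with NaCl replicates 1 to 4, and at 66.8, 56.2 and 53.7 in WT with azacitidine. It stood at 45.1, 79.1, 79.4 and 61.8 in R882H with NaCl, and at 68.2, 39.0, 67.7, 65.0 and 88.2 in R882H with azacitidine. The lowest and the highest library were both in R882H with azacitidine (replicates 2 and 5), and all groups overlapped. The group means were 56.5 ± 12.6, 58.9 ± 6.98, 66.3 ± 16.4 and 65.6 ± 17.5 CPM in that order. The log2 difference of azacitidine from NaCl was -0.02 in R882H (95% interval -0.49 to 0.45) and 0.06 in WT (-0.47 to 0.60) in the edgeR fit. Of the 6853 exon bases of Setdb1, 75 overlap the opposite-strand gene Cers2, which stood at 318 to 589 CPM. The strand setting is not given in the sources used here, so reads there may be shared.

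TRIM28, the scaffold that KRAB zinc finger proteins use to call SETDB1, had the steadiest gene. Trim28 (chr7:12999114-13031035, plus strand) stood at 426, 416, 418 and 399.6 CPM in WT with NaCl and at 397, 426 and 394 in WT with azacitidine. It stood at 315, 469, 372 and 346 in R882H with NaCl and at 341, 367, 376, 369.6 and 436 in R882H with azacitidine. The 2 extremes were R882H with NaCl replicates 1 and 2, the libraries with T cell and erythroid RNA, whose part in this was not tested. Over the 16 libraries its SD of log2 CPM was 0.149, at the 2.66th percentile of all genes tested, and its highest library was 1.49 times its lowest. Its interval was also the narrowest, with a log2 difference of 0.01 (-0.26 to 0.27) for azacitidine in R882H and -0.14 (-0.42 to 0.14) for R882H against WT under NaCl.

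ATF7IP, the partner that stabilises SETDB1 in the nucleus, was encoded by the member with the widest difference between groups. Atf7ip (chr6:136506167-136610862, plus strand) stood at 68.6, 74.5, 84.2 and 91.6 CPM in WT with NaCl and at 158, 81.2 and 80.9 in WT with azacitidine. It stood at 97.0, 91.2, 114 and 88.0 in R882H with NaCl and at 96.5, 71.3, 89.2, 94.9 and 103 in R882H with azacitidine. WT with azacitidine replicate 1 was above every other library, and the other 15 lay between 68.6 and 114. The log2 difference of azacitidine from NaCl in WT was 0.42 (SE 0.21, 95% interval -0.03 to 0.87, edgeR adjusted p = 0.854). Without that library it was 0.02 (SE 0.17), and the difference between the responses of the genotypes moved from -0.52 to -0.12.

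The library high in Atf7ip was also the highest of the 16 for Ehmt2 (131 CPM) and for several listed pathway genes, Smchd1 (94.8), Prdm2 (39.5) and Kdm7a (22.0) among them. It had the largest share of counts on repeat families too. The part that this plays in the Atf7ip value was not tested.

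EHMT1 and EHMT2, the pair that places the mono- and dimethyl forms of the mark on silent genes, spread differently across libraries. Ehmt1 (chr2:24789928-24919614, minus strand) stood at 87.5, 82.5, 127 and 113 CPM in WT with NaCl and at 103, 89.2 and 91.5 in WT with azacitidine. It stood at 68.1, 97.4, 139 and 124 in R882H with NaCl and at 123, 88.7, 111, 116 and 125 in R882H with azacitidine. In both NaCl groups replicates 1 and 2 were below replicates 3 and 4, while the treated groups lay within the range of the NaCl libraries. The log2 difference of azacitidine from NaCl came to 0.07 (-0.33 to 0.48) in R882H and -0.12 (-0.58 to 0.34) in WT.

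Ehmt2 (chr17:34898469-34914052, plus strand) stood at 78.8, 101, 96.4 and 93.3 CPM in WT with NaCl and at 131, 102 and 93.1 in WT with azacitidine. It stood at 90.3, 95.6, 106 and 89.2 in R882H with NaCl and at 89.6, 78.2, 82.2, 101 and 116 in R882H with azacitidine. Its SD of log2 CPM, 0.195, was at the 8.65th percentile of genes tested, and after the first library of WT with azacitidine the next highest was at 116 CPM. For azacitidine against NaCl the log2 difference was -0.03 (-0.33 to 0.27) in R882H and 0.24 (-0.11 to 0.58) in WT. The FPKM ratio of Ehmt1 to Ehmt2 within a library ran from 0.510 in R882H with NaCl replicate 1 to 0.940 in R882H with NaCl replicate 4, so Ehmt2 was the more abundant in each.

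The SUV39 enzymes, which write the trimethyl form at pericentromeric repeats, differed in level and not detectably between groups. Suv39h1 (chrX:8061171-8074760, minus strand) stood at 113, 96.9, 108 and 89.1 CPM in WT with NaCl and at 75.5, 115 and 93.5 in WT with azacitidine. It stood at 62.3, 127, 98.5 and 92.3 in R882H with NaCl and at 92.5, 94.5, 102, 95.3 and 110 in R882H with azacitidine. The lowest and the highest were again R882H with NaCl replicates 1 and 2. The 5 libraries of R882H with azacitidine were the closest to each other, at 98.9 ± 7.27 CPM, against 95.0 ± 26.5 (SD, n = 4) in R882H with NaCl. Azacitidine against NaCl gave a log2 difference of 0.06 (-0.31 to 0.43) in R882H and -0.10 (-0.52 to 0.31) in WT. Of its 5270 exon bases, 767 overlap the antisense gene Gm14820, which reached at most 0.154 CPM.

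Suv39h2 (chr2:3455815-3475031, minus strand) stood at 17.8, 15.6, 12.0 and 12.2 CPM in WT with NaCl and at 12.6, 14.4 and 12.4 in WT with azacitidine. It stood at 8.86, 24.6, 13.6 and 10.6 in R882H with NaCl and at 11.6, 12.1, 13.7, 14.4 and 12.5 in R882H with azacitidine. Its highest library was 2.78 times its lowest, the widest ratio of any member, and both were in R882H with NaCl. Its log2 difference under azacitidine was -0.17 (-0.69 to 0.36) in R882H and -0.13 (-0.73 to 0.46) in WT. Suv39h1 was 4.31 to 7.48 times Suv39h2 in FPKM in every library. Of the 4410 exon bases of Suv39h2, 357 overlap the opposite-strand gene Dclre1c, which stood at 10.4 to 22.3 CPM, and since the strand setting is not given in the sources used here, its reads may be shared.

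MPHOSPH8, the H3K9me3 reader of HUSH, and PPHLN1, another of its subunits, did not keep a fixed proportion. Mphosph8 (chr14:56668248-56697430, plus strand) stood at 48.3, 53.2, 42.3 and 35.5 CPM in WT with NaCl and at 38.0, 52.6 and 45.0 in WT with azacitidine. It stood at 66.2, 46.5, 41.3 and 30.4 in R882H with NaCl and at 27.6, 48.9, 35.0, 43.7 and 42.9 in R882H with azacitidine. Replicates 1 and 2 were above replicates 3 and 4 in both NaCl groups, the opposite of Ehmt1 and Morc3. The log2 difference of azacitidine from NaCl in R882H was -0.22 (-0.67 to 0.24). Of its 3586 exon bases, 384 overlap Gm16973, which stood at 5.73 to 8.52 CPM.

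Pphln1 (chr15:93398350-93491510, plus strand) stood at 44.5, 31.7, 42.8 and 40.3 CPM in WT with NaCl and at 52.5, 46.0 and 34.5 in WT with azacitidine. It stood at 30.6, 69.4, 55.0 and 41.0 in R882H with NaCl and at 51.7, 34.1, 43.0, 61.2 and 55.4 in R882H with azacitidine. It varied most of the members, with an SD of log2 CPM of 0.344, which is at the 35.9th percentile of genes tested. Between azacitidine and NaCl the log2 difference was 0.00 (-0.48 to 0.48) in R882H and 0.15 (-0.39 to 0.70) in WT. The FPKM ratio of Mphosph8 to Pphln1 was 2.74 in R882H with NaCl replicate 1 and 0.677 in R882H with azacitidine replicate 1, the 2 ends of its range.

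MORC3, a nuclear ATPase that takes part in silencing retroviral elements, had the clearest pattern by library. Morc3 (chr16:93832121-93876073, plus strand) stood at 116, 109, 171 and 172 CPM in WT with NaCl and at 119, 119 and 144 in WT with azacitidine. It stood at 100.4, 119, 191 and 184 in R882H with NaCl and at 176, 138, 159, 166 and 180 in R882H with azacitidine. The 4 NaCl libraries numbered 1 and 2 all lay below the 4 numbered 3 and 4, and the R882H azacitidine libraries, at 138 to 180, all lay above the lower set. For R882H against WT under azacitidine the log2 difference was 0.36 (SE 0.22, 95% interval -0.10 to 0.82, edgeR adjusted p = 0.562). The 2 groups overlapped, since replicate 2 of R882H, at 138, was below replicate 3 of WT, at 144.

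**Figure D2:**
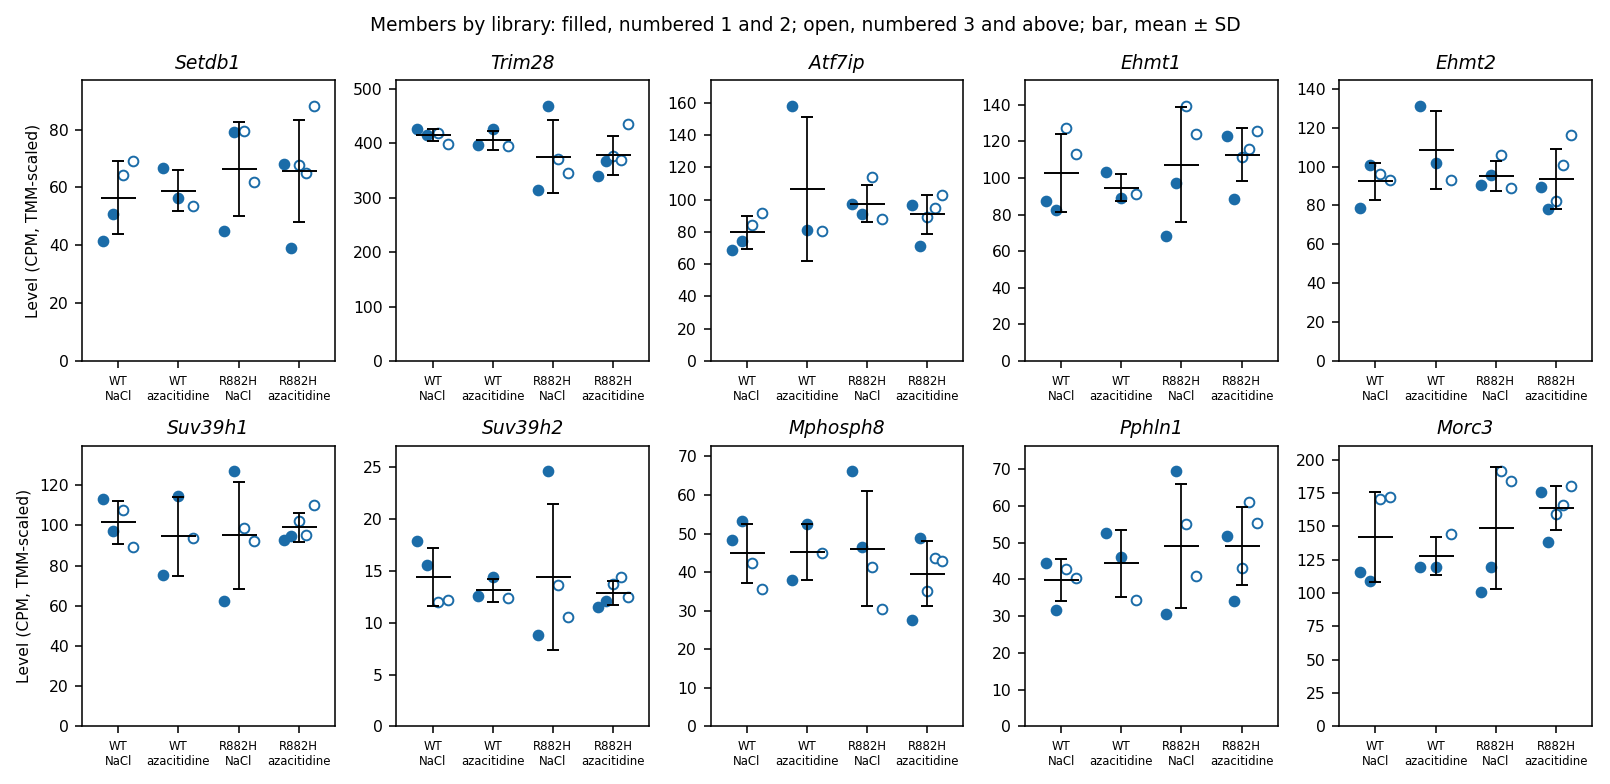
CPM of each member in every library, 1 panel per member with its own axis from 0, points by group (filled for libraries numbered 1 and 2, open for 3 and above), and bars for the group mean and SD. The groups overlap in every panel, and WT with azacitidine replicate 1 is the highest Atf7ip point at 158 CPM.

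The question the design puts to these genes is whether azacitidine, the R882H allele or their combination altered their RNA. In edgeR, 0 of the 10 members passed an adjusted p of 0.05 in any of 6 contrasts, and 0 had an unadjusted p below 0.05. DESeq2 and limma-voom gave 0 calls and 0 unadjusted p below 0.05 as well. Few genes of any kind were called. The share of all genes called was 0.00545% for azacitidine in R882H, 0% for azacitidine in WT and 0.0218% for azacitidine averaged over genotypes. It was 0% for the difference between the responses, 0.00545% for R882H against WT under NaCl and 0.00545% under azacitidine. With the replicate number as a block in the 8 NaCl libraries, R882H against WT gave 0 member calls and 0 calls over all genes. The fit of all 16 libraries without the block called 1 gene. These fits differ in their libraries as well as in the block. Against such a background, 0 of 10 says nothing particular about these genes.

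Unadjusted p below 0.05 were held by 6.69% of all genes for azacitidine in R882H, 6.02% in WT and 6.85% averaged over genotypes. They were held by 6.07% for the difference between responses, 5.59% for genotype under NaCl and 9.34% for genotype under azacitidine. The groups of libraries overlapped for every member in each of the 4 simple contrasts. Among all genes, 1.57% did not overlap for azacitidine in R882H, 5.73% for azacitidine in WT, 1.97% for genotype under NaCl and 10.7% for genotype under azacitidine.

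The intervals bound the size of change that the data leave room for. Of the 60 intervals, 59 lay within a log2 change of 1 in either direction, which is 2-fold, and the other was the lower bound of -1.12 for Atf7ip in the difference between responses. Each interval covers 1 gene at 95% and they do not hold jointly. For azacitidine in R882H the members' differences ran from -0.22 (Mphosph8) to 0.14 (Morc3), with bounds from -0.69 to 0.56. In WT they ran from -0.15 (Morc3) to 0.42 (Atf7ip). For R882H against WT they ran from -0.14 (Trim28) to 0.30 (Pphln1) under NaCl and from -0.23 (Atf7ip) to 0.36 (Morc3) under azacitidine. The WT group with azacitidine and that with NaCl each serve in several contrasts, so these values share libraries.

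The median absolute log2 difference of the members was 0.066 for azacitidine in R882H, against 0.215 over all genes tested. It was 0.126 against 0.237 for azacitidine in WT, 0.082 against 0.202 for genotype under NaCl and 0.172 against 0.289 for genotype under azacitidine. The members are counted more deeply than most genes, and their SD of log2 CPM over the 16 libraries had a median of 0.297 against 0.437 over all genes. The signed medians were -0.01, -0.01, 0.05 and 0.02 in the same order, and -0.04, 0.01, 0.03 and -0.02 over all genes.

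**Figure D3:**
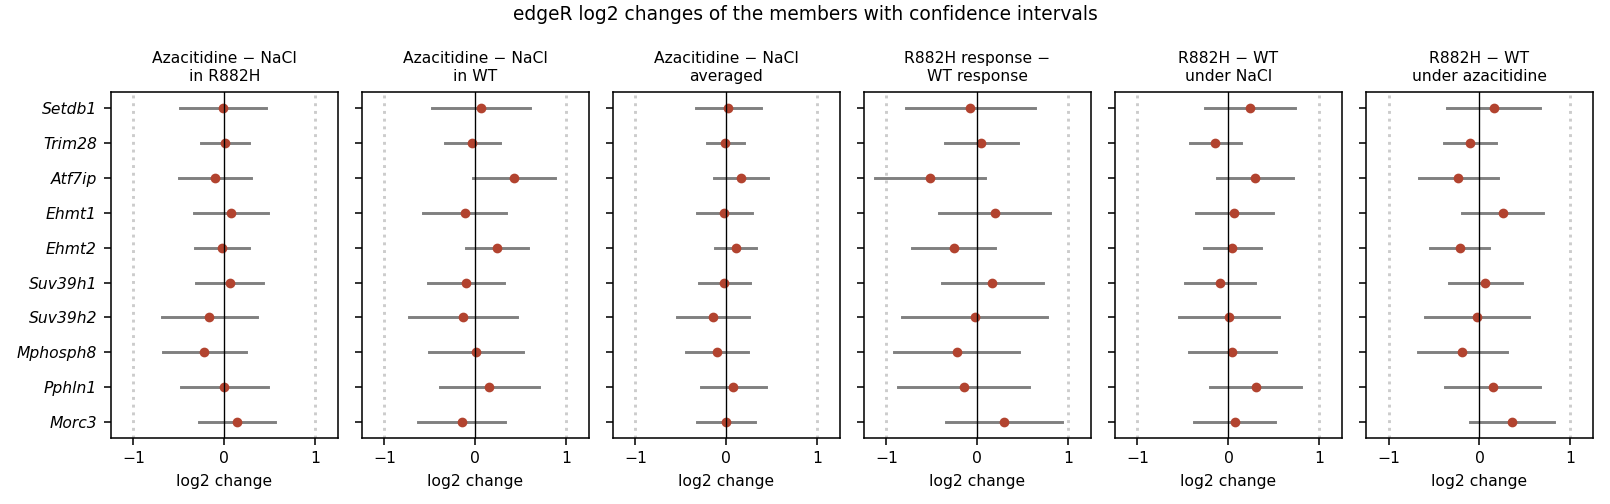
Log2 differences of the 10 members with 95% intervals in the 6 contrasts of the edgeR fit. Every interval holds 0, and the widest departure is Atf7ip at -0.52 in the difference between responses.

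Some members separated the NaCl libraries by number, in the same proportion as genes at large. What the numbers 1 to 5 stand for is not given in the labels, and the split between 1 and 2 and the rest was known from earlier results, so it is described without a test. In the 8 NaCl libraries, Morc3 ran from 100.4 to 119 CPM in numbers 1 and 2 and from 171 to 191 in numbers 3 and 4. Ehmt1 ran from 68.1 to 97.4 against 113 to 139, and Mphosph8 from 46.5 to 66.2 against 30.4 to 42.3. These 3 of 10 members did not overlap between the sets, and neither did 30.9% of all genes tested, so the share is that of the background and is not particular to these genes.

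Within groups, Morc3 was lower in numbers 1 and 2 by a log2 difference of -0.61 in WT with NaCl and -0.78 in R882H with NaCl. It was -0.27 in WT with azacitidine and -0.11 in R882H with azacitidine. For Ehmt1 the differences were -0.50 and -0.69 under NaCl, and 0.07 (WT) and -0.17 (R882H) under azacitidine. For Mphosph8 they were 0.39 and 0.65 under NaCl, and -0.01 and -0.13 under azacitidine. These 3 members are the ones whose NaCl sets did not overlap, so their wider differences under NaCl follow from that choice. Over all 10 members the median absolute difference between the sets was 0.342 under NaCl and 0.153 under azacitidine in WT. In R882H it was 0.165 under NaCl and 0.182 under azacitidine. Over all genes the WT medians were 0.414 (NaCl) and 0.293 (azacitidine), and the R882H medians 0.5885 (NaCl) and 0.176 (azacitidine). The members thus differed less than genes at large in all but the treated R882H libraries, where the medians were close. In R882H with azacitidine all 10 members were lower in numbers 1 and 2. The share of all genes is not given, so this count cannot be read as particular to the members. In WT with azacitidine, where numbers 3 and above are 1 library, Atf7ip (0.49) and Pphln1 (0.51) were higher in numbers 1 and 2. The Atf7ip value rests on replicate 1, at 158 CPM, since replicates 2 and 3 were at 81.2 and 80.9. Suv39h2 shared the direction of Mphosph8 under NaCl, at 0.46 in WT and 0.30 in R882H, but its sets overlapped in R882H.

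Markers of several cell types also separated the same sets of NaCl libraries, as did 30.9% of all genes tested. Kit, the receptor the sort selects on, was at 410 to 666 CPM in the NaCl libraries numbered 1 and 2 and at 926 to 1226 in those numbered 3 and 4. Flt3, a receptor of early progenitors, was at 166 to 629 against 712 to 798. The sets overlapped for Ly6a (48.5 to 275 against 80.1 to 133), Cd34 (427 to 1302 against 1193 to 1376) and Procr (22.6 to 88.5 against 77.1 to 107). All 4 erythroid markers were without overlap, with Klf1, the erythroid regulator, at 65.3 to 777 against 14.9 to 42.7. So was 1 of 4 mast cell and basophil markers (Mcpt8, 22.6 to 37.4 against 6.84 to 15.8). At low levels, so were 1 of 4 macrophage markers (C1qa) and 1 of 6 T and NK cell markers (Cd8a). The sets overlapped for all listed markers of mature B cells and mature neutrophils. The part of cell composition in the Morc3, Ehmt1 and Mphosph8 values was not tested.

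Within each set of numbers no member was called in any contrast. The estimates for Ehmt1 and Morc3 are given as values only, since these members were named for their split in the NaCl controls, which enters the estimates. In numbers 3 and above alone, azacitidine averaged over genotypes gave Ehmt1 -0.29 (SE 0.083, edgeR adjusted p = 0.081) and Morc3 -0.21 (SE 0.068, edgeR adjusted p = 0.104). In numbers 1 and 2 alone the values were 0.26 for Ehmt1 (edgeR adjusted p = 0.757) and 0.29 for Morc3 (edgeR adjusted p = 0.669). In numbers 3 and above 860 of 18795 genes were called, or 4.58%, and the WT azacitidine arm there is 1 library, assumed to vary as the other groups do.

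**Figure D4:**
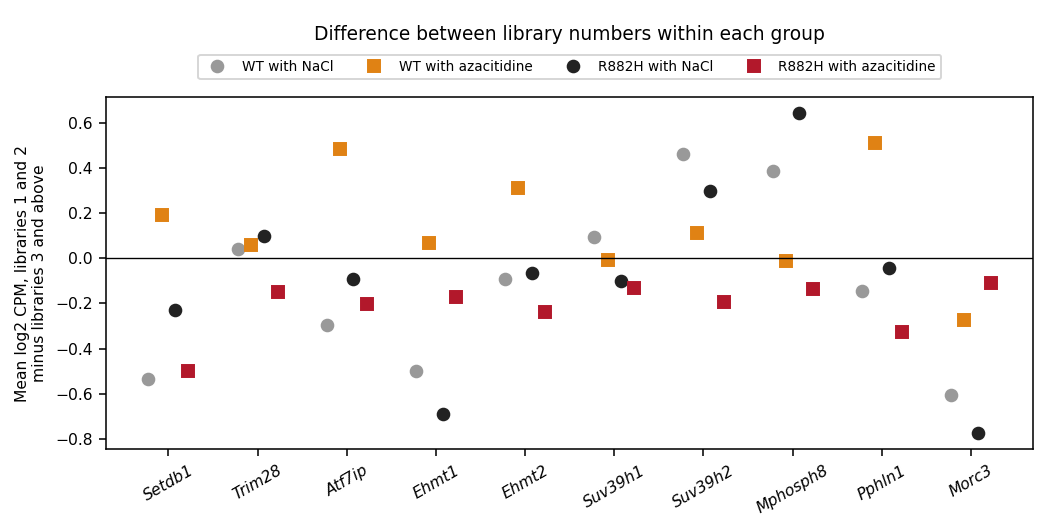
Mean log2 CPM of libraries numbered 1 and 2 minus that of libraries numbered 3 and above, for each member and group. In WT with azacitidine the set of 3 and above is 1 library. Under NaCl, Morc3 and Ehmt1 are below 0 and Mphosph8 above 0 in both genotypes, with the lowest point at -0.78 for Morc3 in R882H.

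The wider pathway was examined with 60 genes in 10 functional lists, of which 56 passed the filter. Morc2b, Atf7ip2, Zfp708 and Zfp819 did not. None of the 56 was called by edgeR in any contrast, against the shares of all genes given above. Unadjusted p below 0.05 were held by 0 for azacitidine in R882H, 0 in WT, 1 averaged, 3 for the difference between responses, 2 for genotype under NaCl and 4 for genotype under azacitidine. The medians of the 56 log2 differences lay between -0.02 and 0.06 in all 6 contrasts.

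The HP1 proteins bind the methylated lysine. Cbx5, which encodes HP1 alpha, was at 60.8, 79.4, 76.4, 88.0 and 81.0 CPM in R882H with azacitidine and at 148, 108 and 95.0 in WT with azacitidine, so these groups did not overlap. The log2 difference was -0.60 (SE 0.25, edgeR adjusted p = 0.533). Under NaCl, Cbx5 was at 90.2 ± 22.1 CPM in WT and 93.1 ± 36.0 in R882H (SD, n = 4 each). It also differed by library number there, lower in 3 and 4 than in 1 and 2, at 63.1 to 71.6 against 99.6 to 141 CPM.

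Among demethylases, which remove the mark, Kdm7a was at 6.58, 8.77, 10.3 and 15.5 CPM in WT with NaCl and at 21.0, 18.5, 16.4 and 17.0 in R882H with NaCl. Those groups did not overlap, and the log2 difference was 0.82 (SE 0.29, edgeR adjusted p = 0.797). Cdyl, a reader that partners EHMT2, was 37.3 ± 7.79 CPM in R882H with NaCl and 28.3 ± 4.53 in WT with NaCl (SD, n = 4 each), also without overlap. Its log2 difference was 0.40 (SE 0.18, edgeR adjusted p = 0.882). In all, 2 of the 56 did not overlap under NaCl and 5 did not under azacitidine, beside 1.97% and 10.7% of all genes.

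The remaining pathway genes with the lowest p were Smchd1 and Zfp568 in the difference between responses, at -0.76 and -1.31 (edgeR adjusted p = 0.763 for both). Morc4 followed for azacitidine averaged over genotypes, at -0.67 (edgeR adjusted p = 0.671), and Prdm2 and H3f3a for genotype under azacitidine, at -0.87 and -0.38 (edgeR adjusted p = 0.533 for both). Smchd1, a silencer of the inactive X chromosome, and Prdm2, an H3K9 methyltransferase, were both highest in WT with azacitidine replicate 1. So were Zfp568 (17.5 CPM) and H3f3a (527 CPM). The 4 tested genes listed with HUSH were Tasor, Morc2a, Resf1 and Tasor2. Their log2 differences ran from -0.23 to 0.07 for azacitidine in R882H and from 0.07 to 0.23 in WT, with 0 called. Tasor (33.9 CPM) and Tasor2 (38.6 CPM) were highest in WT with azacitidine replicate 1, Morc2a and Resf1 in other libraries.

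Retroelement families that these enzymes silence were read out in the same libraries. Of 19 listed families, from IAP, ETn and other retroviral groups and from young LINE-1, 0 were called by edgeR in any contrast among 1024 families tested. The share of all families called was 0% in 4 contrasts, 0.195% for the difference between responses and 0.391% for genotype under azacitidine. Unadjusted p below 0.05 were held by 0 of the 19 for azacitidine in R882H, beside 1.07% of all families, by 4 in WT beside 17.6%, and by 1 averaged beside 3.81%. They were held by 6 for the difference between responses beside 14.1%, by 1 for genotype under NaCl beside 1.95% and by 3 for genotype under azacitidine beside 16.9%. For azacitidine in WT the listed families had a median log2 difference of 0.58, against 0.56 over all families, and in R882H -0.26 against -0.12. The WT value rests on replicate 1 with azacitidine. Without it, an alternative chosen after seeing the data, the median in WT was 0.12 for the listed families and 0.12 for all families, with 1 of the 19 and 1.65% of all below an unadjusted p of 0.05. For the difference between responses, the listed median was -0.88 with it and -0.41 without it, and for genotype under azacitidine -0.56 and -0.15. Averaged over genotypes it was 0.14 with it and -0.08 without it. No family was called in any contrast without WT with azacitidine replicate 1. The R882H value of -0.26 takes in R882H with NaCl replicate 1. That library was at 274 CPM for IAPEz-int, against 144 to 163 in the rest of its group, and at 186 for L1Md_T, against 56.9 to 84.7. No fit of the families without it is given. Its part in the R882H value and in the difference between responses was not tested.

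IAPEz-int, the internal part of an IAP provirus and a target of SETDB1 and TRIM28, was at 134, 177, 154 and 138 CPM in WT with NaCl and at 303, 218 and 130.0 in WT with azacitidine. It was at 274, 144, 158 and 163 in R882H with NaCl and at 139, 141, 175, 196 and 121 in R882H with azacitidine. The 2 highest libraries were WT with azacitidine replicate 1 and R882H with NaCl replicate 1. L1Md_T, a young LINE-1 family and a HUSH target, was highest in the same 2, at 212 and 186 CPM, against at most 128 elsewhere. These are also the libraries with the largest shares of counts on all repeat families, 10.1 and 6.81%. How reads with several positions were counted is not given in the sources used here, so these values compare libraries only.

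Genes whose profile over the 16 libraries lay closest to a member were found by the root mean square (RMS) difference of centred log2 CPM among 12272 genes. For Morc3 they included Ptpn9 (0.084) and Ahcyl1 (0.089). For Ehmt1 they were Ascc2 (0.079), Ap3b1 (0.081) and Mapk14 (0.084), and for Suv39h1 Mcm7 (0.078), Pola2 (0.079) and Uqcc1 (0.080). For Trim28 they were Ddx39b (0.072), Msl3 (0.084) and Timm44 (0.086), and for Setdb1 Dcaf7 (0.092), Scaf4 (0.101) and Polr3b (0.107). Among the members themselves Ehmt1 and Morc3 were the closest pair, at 0.117, and Mphosph8 and Morc3 the farthest, at 0.561. These are descriptions over libraries that share depth and composition, with no test.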

How the data were processed

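RNA of 16 LSK libraries was measured. The authors deposited raw counts per gene and repeat family. The submitters' processing notes name HISAT2 2.0.5, featureCounts 1.6.2, edgeR 3.26.6 and the build GRCm38 (mm10). The annotation, strand setting and rule for reads with several positions are not given in the sources used here. The deposited length of each feature is in bases. The deposited FPKM are these counts divided by length and by 1 library size, a ratio constant in each library. RNA with a RIN under 8 was left out, per the labels' protocols, and cDNA was amplified, with no molecular identifiers named, so error estimates rest on the spread between libraries.

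Counts were filtered by filterByExpr, scaled by TMM (CPM) and fitted with 1 coefficient per group in edgeR 4.0.16 (R 4.3.3, quasi-likelihood test, limma 3.58.1), with a common dispersion of 0.166. P-values were adjusted by Benjamini-Hochberg over 18341 genes, with a call at 0.05. The SE is the absolute log2 difference over the square root of F, and 95% intervals use 15.98 degrees of freedom. Coordinates are from the GENCODE annotation on GRCm38. Repeat families were fitted alike with library sizes from genes. The scripts were tested on simulated data. No 2 libraries of a group were near-copies, with at least 38.5 chi-square units per gene between any pair. Same-numbered libraries of WT and R882H with NaCl deviated together from their group means (4 of 4 pairs above 0.1, r from 0.101 to 0.342). Differently numbered pairs within 1 and 2 (0.258 and 0.27) and within 3 and 4 (0.296 and 0.313) did so too. Pairs across numbers 1 and 2 against 3 and 4 ran from -0.383 to -0.16. The numbers, which come from the sample titles, thus part those groups into 2 sets. Pairing by single number cannot be told apart from that split. Alternatives used DESeq2 1.42.0, limma-voom, sva 3.50.0, other filters, sample sets and covariates.

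The members and lists were chosen with earlier results of these data known. All members are named, with full statistics by rule for an unadjusted p below 0.05. Those of Atf7ip and Morc3 above it, and the Ehmt1 and Morc3 values by library number, were picked after their values were seen. Of other pathway genes, the 8 with the lowest unadjusted p over the 6 contrasts are given, and the 3 genes closest in profile (mean log2 CPM of at least 1) for 5 members. Values of 2 genes are not reported here.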

Additional observations from a re-analysis of the deposited data

How the results depend on the processing

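Over 29 alternatives (16 of which leave out 1 library) no member was called in any contrast, and the lowest adjusted p was 0.081, for Ehmt1 averaged over genotypes in libraries numbered 3 and above. Directions were less stable. Of 60 signs, 32 were kept in those libraries, 47 in numbers 1 and 2, 41 with 2 surrogate variables and 59 in DESeq2. With the replicate number as a block (replicate block), 0 members were called, in all 16 libraries or in the NaCl groups alone, a fit chosen after seeing the data. Over all groups, those with NaCl included, 9 of 21 same-numbered pairs correlated above 0.1 (range -0.124 to 0.345). Only 6 of 16 libraries matched their own number best. Between R882H with NaCl and WT with azacitidine, 2 of 3 such pairs were above 0.1 (0.0585 to 0.232). Pairs across the number sets ran from -0.415 to -0.0703 there. In each other pair of groups, apart from the 2 NaCl groups, at most 1 same-numbered pair was above 0.1. Leaving out 2 libraries (R882H with NaCl 1 and WT with azacitidine 1), or 3 with R882H with NaCl 2, was chosen after seeing the data and gave 0 member calls, with 41 and 40 of 60 signs kept.

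Counts over all genes depended on the tool. For azacitidine in R882H they were 1 in edgeR, 97 in DESeq2 and 233 in numbers 3 and above, with a range of 0 to 233. For azacitidine in WT they were 0, with 53 in DESeq2. For azacitidine averaged they were 4, with 169 in DESeq2, 89 with 2 surrogate variables and up to 860. The difference between responses gave 0 to 12, genotype under NaCl 0 to 28 and genotype under azacitidine 0 to 21. The causes were not tested.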
